A study of Mus musculus with 12 samples.

Results

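Abdominal-cavity macrophages from GPR15 KO mice were compared with those from wild-type (WT) mice in the absence of LPS, over 12323 of the 13283 genes that could be tested in the whole series. A gene was included if it was autosomal and if its brightest probe passed the scanner's background test on each of the 3 arrays in either PBS group. Of the genes left out, 409 were not autosomal and 551 were above background only after LPS. All mice were of the strain labelled C57/BL6, and the cells were cultured in DMEM with 10% FBS. The KO PBS and WT PBS groups received PBS for 4 h, and the KO LPS and WT LPS groups received LPS, a bacterial cell-wall lipid, at 100 ng/ml for the same time. Each group held 3 arrays, numbered here as in the sample titles. The labels state neither how the Gpr15 allele was made, nor the sex or age of the mice, nor whether the 3 arrays of a group came from separate mice. The p-values below therefore measure the spread between arrays, which may be technical, and the number of arrays limits the precision.

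GPR15 is a G protein-coupled receptor best known for guiding lymphocytes to the large intestine and skin. Macrophages of the peritoneal cavity are resident phagocytes that clear dead cells and respond to bacteria and viruses. In such cells a low level of type I interferon signalling runs without infection: interferon binds its receptor, a complex of transcription factors enters the nucleus, and it binds interferon-stimulated response elements in front of antiviral genes. LPS raises the same genes through TLR4 and newly made interferon beta.

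Levels are given as the log2 of the scanner's processed signal minus the 75th percentile of the same array, so that 0 marks the upper quartile of the spots. On the 6 PBS arrays 50.8% to 54.9% of the 59305 non-control spots were well above background, and 0 spots were saturated. The probe for Gpr15 itself was well above background on 0 of 12 arrays, with signals of 6.02 to 15.2, so the genotype could not be checked with it. Xist, the RNA of the inactive X chromosome, was at least 10.9-fold lower on the KO PBS arrays, and 4 Y-linked genes were above background on all 3 of them and on 0 of the WT PBS arrays. Over all 12 arrays, Xist was above background on 6 WT and 0 KO arrays. The 4 Y-linked genes were above background on 6 KO arrays and 0 WT arrays, except Eif2s3y, on 1 WT array. Genotype and this sex-linked difference cannot be told apart. All WT arrays and KO PBS arrays 1 and 2 shared one slide, and KO PBS array 3 lay on the other. WT PBS array 3 stood apart from its group. On the first principal component, which carried 47.1% of the variance of the 6 PBS arrays, it lay at -9.77 against -21.7 and -26.4 for the other WT arrays and 15.6 to 25.4 for the KO arrays.

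KO and WT macrophages differed without LPS in 1781 genes, 1016 higher and 765 lower in KO cells. Genes called at an adjusted p below 0.05 (limma, Benjamini-Hochberg adjustment over the 13283 genes) made up 14.45% of the autosomal genes, against 14.1% over all genes tested. The higher ones stood against a background of 8.06% and the lower ones against 6.05%. These shares are the scale for each count of called list members in PBS below. Most differences were small. The median size among the called genes was 0.37 on the log2 scale, a 1.29-fold difference, and 76.3% lay under 1.5-fold. At least 2-fold differences were found for 70 of the higher and 51 of the lower genes. Of these 121 genes, 78 were above background on all 6 PBS arrays. The others had passed through the group where they are high, so their direction was partly set by the filter. Among all 12323 genes the median difference was 0.01. A total of 11940 genes were above background on all 6 PBS arrays, and these held 976 of the higher and 743 of the lower calls. The remaining 264 and 119 genes had passed through the KO or the WT arrays only, so their direction was partly set by the filter.

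The calls depended on single arrays in number. Without WT PBS array 1 or 2 there were 870 and 990 calls, and without WT PBS array 3 there were 2457. On slide 1 alone, which leaves 3 WT against 2 KO arrays, 1029 genes were called. With slide as a term, the slide effect was set only by KO PBS array 3 against arrays 1 and 2. The PBS differences were then the same as on slide 1 alone. For 304 of the 1781 called genes, WT PBS array 3 lay nearer to the KO mean than to the mean of the other WT arrays. The same was true of WT PBS arrays 1 and 2 for 12 and 40 genes.

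**Figure D1:**
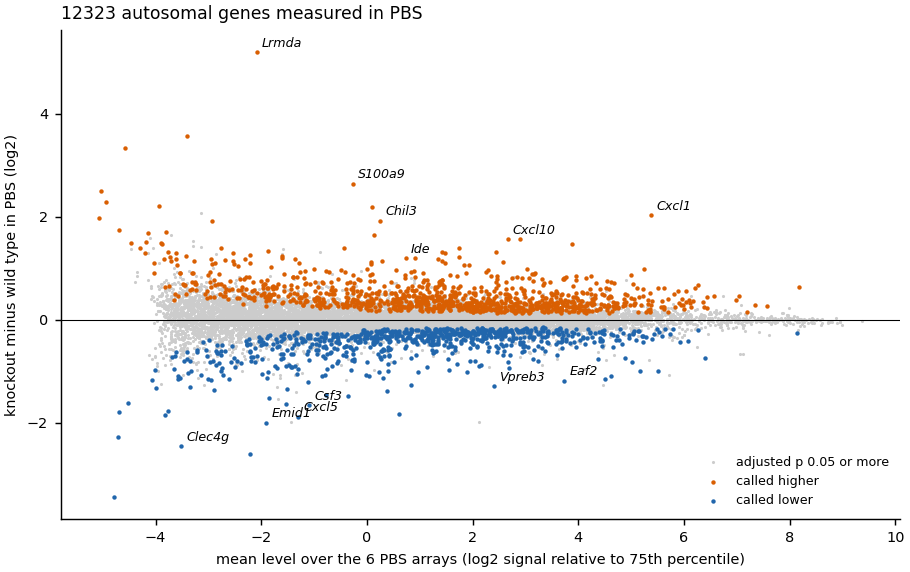
Difference between knockout and wild type in PBS (y axis, log2) against the mean level over the 6 PBS arrays (x axis, log2 relative to the 75th percentile), 1 point per gene, with called genes in colour (limma, adjusted p below 0.05). Of 12323 genes, 1016 were called higher and 765 lower, and Lrmda stands apart at 5.19; values of genes not above background in one group are not fold changes.

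Among genes above background on all 6 PBS arrays without overlap between groups, the largest rises in KO cells included genes of innate defence and of macrophage differentiation. Values after ± are standard errors of the fit, with n = 3 arrays per group, and per-array values follow the order of the array numbers. S100a9, a subunit of the calcium-binding antimicrobial protein calprotectin, stood at -1.29, -1.07 and -2.41 on the WT arrays and at 1.12, 0.70 and 1.32 on the KO arrays. It rose by 2.64 ± 0.50 (adjusted p = 0.00562), and the groups did not overlap. On slide 1 alone the rise of S100a9 was 2.50 and missed the threshold (adjusted p = 0.0563). Its partner gene S100a8 differed by 0.77 ± 0.35 and was not called (adjusted p = 0.165).

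Cxcl1, a neutrophil-attracting chemokine, gave one of the tightest rises. Its levels were 4.48, 4.58 and 4.03 in WT and 6.43, 6.42 and 6.35 in KO cells, a rise of 2.03 ± 0.11 (adjusted p = 6.75e-07). Every KO array lay above every WT array by a wide margin, and the KO arrays were within 0.1 of each other. Chil3, a chitinase-like protein of alternatively activated macrophages, stood at -0.60, -0.61 and -0.93 in WT and at 1.38, 0.83 and 1.40 in KO cells, and rose by 1.92 ± 0.19 (adjusted p = 0.000121). Cndp2, a cytosolic dipeptidase, rose by 1.56 ± 0.07 (adjusted p = 1.9e-07) from levels of 2.17, 2.11 and 2.05 to 3.79, 3.66 and 3.55.

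Spic, a transcription factor of iron-recycling macrophages, stood at 0.61, 0.21 and 1.47 in WT and at 2.15, 2.07 and 2.04 in KO cells. WT PBS array 3 lay nearer to the KO arrays than the other WT arrays did, and the rise was 1.32 ± 0.24 (adjusted p = 0.00479). The lipid-binding protein Fabp7 showed the same order, with 3.04, 2.53 and 3.86 in WT and 4.61, 4.57 and 4.68 in KO cells, and rose by 1.47 ± 0.24 (adjusted p = 0.00224). Mmp13, a collagenase, rose by 1.39 ± 0.28, Tppp3, a microtubule-associated protein, by 1.65 ± 0.22, and Dpep3, a membrane dipeptidase, by 1.34 ± 0.21. The rise of the formyl peptide receptor gene Fpr-rs6 rested on one array: it stood at -2.75 and -2.76 on KO PBS arrays 1 and 2 and at -0.68 on array 3, and its value of 1.40 ± 0.42 became 0.71 with slide as a term.

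The probes of Slc15a2, a peptide transporter, disagreed. The brightest one read -0.67, -0.45 and -1.89 in WT and 1.11, 1.48 and 0.98 in KO cells, a rise of 2.19 ± 0.41 (adjusted p = 0.00523). A dimmer Slc15a2 probe, above background on 1 PBS array, rose by 1.78 ± 0.30, and another, above background on 2, differed by -2.02 ± 0.97 without passing the test. The gene is therefore uncertain on these arrays.

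For many of the largest falls, WT PBS array 3 lay close to the KO arrays. Emid1, an extracellular matrix protein gene, fell without that pattern: it stood at -0.94, -0.89 and -0.90 in WT and at -2.71, -2.89 and -3.12 in KO cells, and fell by 2.00 ± 0.21 (adjusted p = 0.000159). Cxcl5, another neutrophil-attracting chemokine, read 0.05, 0.35 and -1.49 in WT and -2.14, -2.62 and -1.96 in KO cells, and its fall was 1.88 on the log2 scale (adjusted p = 0.00613). Csf3, which encodes the granulocyte growth factor G-CSF, read 0.25, 0.56 and -1.62 against -2.14, -1.65 and -2.00 (adjusted p = 0.0223, and 0.0522 with slide as a term). For both genes WT PBS array 3 fell between its own group and the KO arrays, just outside the latter.

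The same was measured for 9 of the 15 largest falls, among them Aebp1, a carboxypeptidase-like matrix protein, Egfl7, a secreted vascular factor, and Tnfsf14, the cytokine LIGHT. Il6, the inflammatory cytokine, was likewise at 6.30, 6.53 and 5.20 in WT and at 5.02, 5.10 and 4.91 in KO cells, and fell by 1.00 ± 0.25 (adjusted p = 0.0222, and 0.0561 with slide as a term). Fos, an immediate early transcription factor, read 4.00, 4.30 and 1.04 against 1.07, 1.26 and 1.04 and was not called (adjusted p = 0.0527). The chemokine gene Ccl2 read 6.80, 7.10 and 4.90 against 5.25, 4.88 and 5.42 and was not called either (adjusted p = 0.136). In these genes WT PBS arrays 1 and 2 were high, and WT PBS array 3 was at or near the KO level. Among the 15 largest rises, WT PBS array 3 lay nearer to the KO mean for 3.

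Other falls held on all 3 WT arrays. Col18a1, the collagen that gives rise to endostatin, stood at 1.17, 1.40 and 0.66 in WT and at -0.25, -0.14 and -0.53 in KO cells, a fall of 1.38 ± 0.16 (adjusted p = 0.00033). Eaf2, an elongation factor partner, read 4.28, 4.20 and 4.47 against 3.22, 3.15 and 3.03, and fell by 1.18 ± 0.07 (adjusted p = 1.89e-06). Tgfb3, a growth factor of the TGF-beta family, fell by 1.35 ± 0.24 (adjusted p = 0.00372). Vpreb3, a chaperone-like gene of B cells, and Lef1, a transcription factor best known from lymphocytes, fell by 1.29 ± 0.15 and 1.20 ± 0.19.

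**Figure D2:**
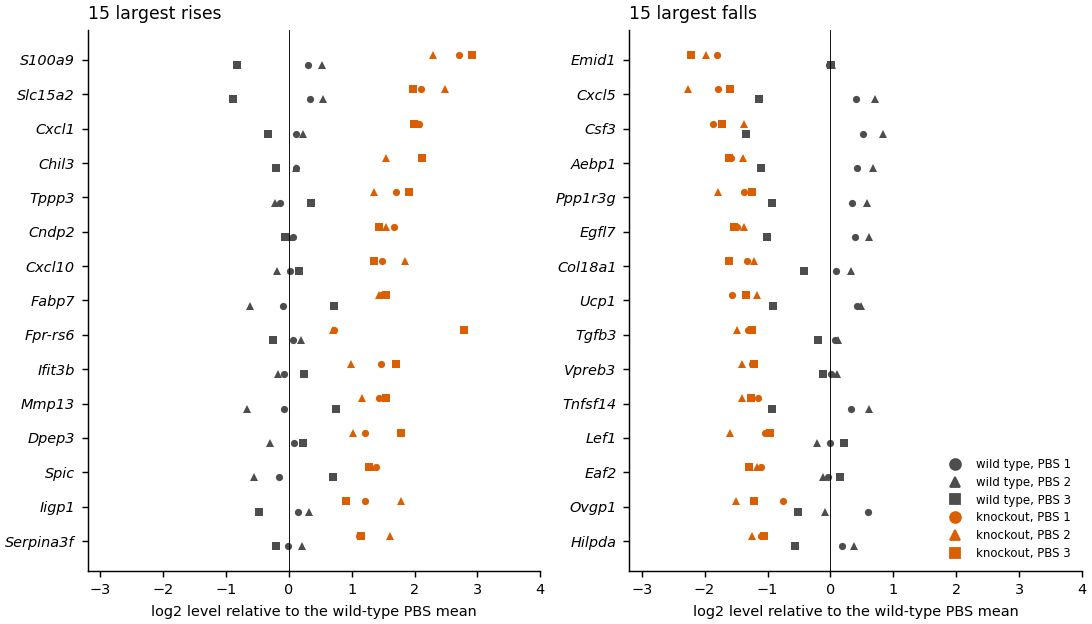
Log2 level relative to the wild-type PBS mean (x axis) of the 15 largest rises (left) and 15 largest falls (right), with each of the 6 PBS arrays as a point and the array number as its shape. In 9 of the 15 falls the wild-type array 3 square lies nearer to the knockout mean than to the other wild-type arrays.

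Some genes were above background in one genotype only. Lrmda, a leucine-rich repeat gene linked to pigment cells, was above background on 3 of 3 KO arrays, at 0.52, 0.52 and 0.47, and on 0 of 3 WT arrays. Its KO level exceeded WT at least 23.9-fold (adjusted p of the fit = 1.9e-07), where the fold is taken against the lowest signal that counted as well above background. All 3 of its probes differed by 4.62 or more. This gene and those named next entered through the group where they are high, so the filter set their direction and their p-values, which rest on background values in the other group, are no support for it. Other such genes had bounds near 2-fold, among them the oxysterol hydroxylase gene Cyp7b1, at least 2.35-fold higher (adjusted p = 0.00412), and the chemokine gene Ccl22, at least 2.26-fold higher (adjusted p = 0.00103). In the other direction the lectin gene Clec4g was at least 3.67-fold lower (adjusted p = 0.000159), with -2.28, -1.81 and -2.81 in WT cells. Nefh, a neurofilament subunit, and Cyp1b1, an enzyme of the aryl hydrocarbon receptor pathway, were at least 2.46-fold and 2.41-fold lower (adjusted p = 2.66e-05 and 0.00176).

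Interferon-stimulated antiviral genes were higher in KO cells as a group. Of 48 genes listed, 42 were measured, 34 rose, 1 fell and 7 did not pass the test, with a median difference of 0.56 against 0.01 over all genes. The 3 arrays of each group did not overlap for 38 of the 42, whereas 30.5% of all genes tested had no overlap. Ifit3b, an inhibitor of viral RNA translation, stood at -1.21, -1.30 and -0.89 in WT and at 0.33, -0.14 and 0.58 in KO cells, and rose by 1.39 ± 0.16 (adjusted p = 0.000269). Ifit1, of the same family, read 0.83, 0.75 and 0.90 against 2.08, 1.81 and 2.46, a rise of 1.29 ± 0.17 (adjusted p = 0.000586). In this family KO PBS array 2 was the lowest KO array and still above every WT array.

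Rsad2 and Cmpk2, neighbouring genes that together make the antiviral nucleotide ddhCTP, rose by 1.13 ± 0.16 and 1.18 ± 0.13. Usp18, which removes ISG15 and dampens the interferon receptor, rose by 0.97 ± 0.11 (adjusted p = 0.00029). Isg15 itself read 6.06, 6.14 and 5.76 against 6.39, 6.19 and 6.45, a small rise of 0.36 ± 0.11 (adjusted p = 0.0485, and 0.121 with slide as a term). Among the RNA-sensing synthetases, Oas3 stood at -0.54, -0.48 and -0.56 in WT and 0.44, 0.08 and 0.21 in KO cells (0.77 ± 0.08, adjusted p = 0.000193). Oasl2 rose by 0.79 ± 0.07, Xaf1, a pro-apoptotic factor, by 0.74 ± 0.06, and Parp14, a mono-ADP-ribosyltransferase, by 0.86 ± 0.07. Ifi27l2a was the gene that fell, from 6.28, 6.16 and 6.43 to 5.94, 5.76 and 5.93 (-0.41 ± 0.07, adjusted p = 0.00341). The group's counts moved little with the arrays used: 30 rose on slide 1 alone, 34 without WT PBS array 3, and 32 to 35 when any 1 PBS array was left out.

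The interferon-inducible GTPases, which attack the vacuoles of intracellular pathogens, rose further. Of 16 measured, 13 rose and 0 fell, with a median of 0.82, where 14 had no overlap between groups. Gbp5 stood at 0.93, 1.00 and 0.83 in WT and at 2.03, 2.24 and 1.79 in KO cells, and rose by 1.10 ± 0.13 (adjusted p = 0.00029). Gbp7 read -0.83, -0.82 and -0.97 against -0.06, 0.02 and 0.18, a rise of 0.92 ± 0.09 (adjusted p = 0.000105). Here KO and WT levels were separated by several times the spread within a group.

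Ifi47 rose by 0.84 ± 0.09 and Irgm2 by 0.82 ± 0.10. Iigp1 had the largest rise and also the widest scatter, from 1.93, 2.11 and 1.32 to 3.00, 3.58 and 2.70 (1.31 ± 0.32, adjusted p = 0.0213). Gbp4, Gbp8 and Gbp9 differed by 0.40, 0.39 and -0.17 and did not pass the test. Between 11 and 13 members rose when any 1 PBS array was left out. The 3 interferon lists together hold 85 of the 12323 genes (0.7%), so their share can be read among the calls. They supplied 59 of the 1016 higher genes (5.8%) and 5 of the 765 lower genes (0.7%). Of the 70 genes that were at least 2-fold higher they supplied 8 (11.4%). All 85 list genes were above background on all 6 PBS arrays, whereas the 70 included genes that were not.

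Sensors and signalling proteins of the interferon pathway differed less. Of 27 measured, 12 rose and 4 fell, with a median of 0.23. The double-stranded RNA sensors Ifih1 (MDA5) and Ddx58 (RIG-I) rose by 0.77 ± 0.08 and 0.58 ± 0.07. Irf7, the amplifier of interferon production, read 5.62, 5.60 and 5.62 against 6.27, 6.03 and 6.17 and rose by 0.55 ± 0.08 (adjusted p = 0.00126). Irf7 is interferon-stimulated itself, and its groups did not overlap.

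The 4 that fell were Sting1 (-0.28), Stat3 (-0.28), Irf8 (-0.24) and Ifngr1 (-0.16). With slide as a term or on slide 1 alone, which give the same differences, only Sting1 of these was called lower. The receptor gene Ifnar1 differed by -0.03, Mavs by -0.05, Irf3 by -0.18 and Tbk1 by 0.13, and none of these was called. The interferon gene Ifnb1 was not among the genes measured, as it was above background on all arrays of neither PBS group.

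The response element named above was searched for as GAAA, any 2 bases and GAAA again, on both strands, in the 250 bases upstream of the gene start, in a RefSeq promoter table of build GRCm38.p6. It was present in 3.42% of the 9843 genes with a promoter in the table and in 2.98% of all 32851 promoters there. Among genes called higher it was in 8.50% (69 of 812), and among genes called lower in 4.19% (25 of 597). In the antiviral list it was in 16 of 32, in the GTPase list in 88.9% (8 of 9), and in the sensing and signalling list in 8.33% (2 of 24). A match describes the letters of the window and is neither a bound site nor a cause. The following 60-base windows are shown because they belong to genes described above or below that rose in KO cells, with the matching 10 bases in capitals, 5′ to 3′ on the strand of the gene. They lie at chr19:34607778-34607837 and chr19:34607744-34607803 for Ifit3b (plus strand, overlapping windows), chr5:120777700-120777759 for Oas3 (minus), chr3:142496744-142496803 for Gbp5 (plus), chr3:142530258-142530317 for Gbp7 (plus), chr11:58214888-58214947 for Irgm2 (plus), chr5:92349068-92349127 for Cxcl10 (minus) and chr9:7272343-7272402 for Mmp13 (plus).
Ifit3b, nearer: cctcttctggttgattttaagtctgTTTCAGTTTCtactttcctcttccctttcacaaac
Ifit3b, farther: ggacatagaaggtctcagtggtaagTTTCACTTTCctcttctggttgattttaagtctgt
Oas3: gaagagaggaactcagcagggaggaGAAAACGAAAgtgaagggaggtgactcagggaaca
Gbp5: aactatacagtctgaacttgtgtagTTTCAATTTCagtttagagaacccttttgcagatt
Gbp7: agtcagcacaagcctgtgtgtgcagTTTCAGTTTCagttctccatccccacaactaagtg
Irgm2: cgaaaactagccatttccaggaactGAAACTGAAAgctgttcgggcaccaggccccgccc
Cxcl10: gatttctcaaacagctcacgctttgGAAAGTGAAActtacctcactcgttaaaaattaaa
Mmp13: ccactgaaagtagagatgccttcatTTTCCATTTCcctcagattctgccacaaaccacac
The match in Gbp7 begins 53 bases upstream of the start, in Irgm2 64, in Oas3 75, in Mmp13 146, in Ifit3b 154 and 188, in Gbp5 165 and in Cxcl10 213. Ifit3b, Mmp13 and the Gbp genes carry it on the opposite strand, where it reads as TTTC, any 2 bases and TTTC.

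Antigen presentation genes differed by list. In the class I list 14 of 17 differences were positive, with a median of 0.12, and 1 to 10 genes were called higher across the alternatives. Over all genes tested, 8.06% were called higher. Of 17 class I and immunoproteasome genes, 4 rose and 0 fell: the non-classical class I gene H2-T24 (0.79 ± 0.13), the peptide transporter subunit Tap1 (0.34 ± 0.06), the proteasome subunit Psmb10 (0.39 ± 0.07) and the class I transactivator Nlrc5 (0.44 ± 0.09). The classical genes H2-K1 and H2-D1 differed by -0.10 and 0.01. Of 16 class II and co-stimulation genes only Cd40 rose, from 0.27, 0.36 and 0.25 to 0.85, 1.06 and 0.42 (0.48 ± 0.12, adjusted p = 0.0237), and KO PBS array 3 was close to the WT arrays.

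Cytokine genes moved in both directions, 4 of 21 higher and 2 lower, with a median of -0.05. Il15, a growth factor of NK and memory T cells, read -0.49, -0.63 and -0.26 in WT and 0.65, 0.57 and 0.65 in KO cells, a rise of 1.08 ± 0.11 (adjusted p = 0.000172). Il18 rose by 0.66 ± 0.07 and Ebi3, a subunit of IL-27, by 0.39 ± 0.06. Tnf stood at 0.94, 0.89 and 1.18 in WT and 1.83, 1.81 and 1.59 in KO cells and rose by 0.74 ± 0.09 (adjusted p = 0.000523). The 2 that fell were Il6 and Csf3, described above, and on slide 1 alone 0 were lower. Il1b differed by -0.34 and Il10 by 0.10, neither called.

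Among 22 chemokines 5 rose and 5 fell. Cxcl10, the interferon-induced T cell attractant, read 1.90, 1.69 and 2.04 in WT and 3.36, 3.72 and 3.23 in KO cells, and rose by 1.56 ± 0.13 (adjusted p = 3.48e-05). Cxcl1 and the scavenger chemokine Cxcl16 (0.74 ± 0.19) also rose, as did Ccl17 (0.65 ± 0.18), a ligand of CCR4. Ccl22, another ligand of CCR4, is counted among the 5 but had entered through the KO arrays only. Cxcl3, close to Cxcl1 in sequence and function, went the other way, from 5.50, 5.49 and 5.30 to 4.56, 4.43 and 4.83 (-0.82 ± 0.10, adjusted p = 0.00032). Cxcl1 and Cxcl5 lie in the same cluster on chromosome 5, together with Ppbp, which fell by 1.07 ± 0.23. Cxcl2 differed by -0.23 and was not called. Without WT PBS array 3, 12 chemokines instead of 5 were called lower.

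Chemoattractant receptors were 5 higher and 1 lower of 19. Fpr2, a formyl peptide receptor, rose by 0.71 ± 0.08 (adjusted p = 0.000288), the leukotriene B4 receptor gene Ltb4r1 by 0.69 ± 0.16, the platelet-activating factor receptor gene Ptafr by 0.33 ± 0.07, and Ccr2, which brings monocytes to tissues, by 0.53. Ccr7 fell by 0.30 ± 0.07, a call lost on slide 1 alone. In a list of arginine, nitric oxide, itaconate and lipid mediator enzymes 9 of 20 rose and 1 fell. Ltc4s, the leukotriene C4 synthase, read 2.38, 2.28 and 2.62 against 3.32, 3.21 and 3.25 (0.83 ± 0.10, adjusted p = 0.000322). The lipoxygenase genes Alox15 and Alox5 rose by 0.80 ± 0.15 and 0.52 ± 0.07, and Alox5ap by 0.29 ± 0.06. Of the prostaglandin enzymes, Ptgs1, Ptgs2, Ptges and Hpgds differed by -0.10, -0.68, -0.06 and 0.10 and were not called. Acod1, which makes itaconate, rose by 0.46 ± 0.06, Slc7a2, an arginine transporter, by 0.50 ± 0.06, and Gch1, which makes a cofactor of nitric oxide synthase, by 0.41 ± 0.05. Nos2 differed by -0.01, and the prostacyclin synthase gene Ptgis fell by 0.37, a call lost with slide as a term (adjusted p = 0.118).

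LPS receptors and NF-kB proteins were close to equal. Of 22 genes 3 rose, namely Myd88 (0.28 ± 0.05), Nfkb2 (0.28 ± 0.06) and Lbp (0.40 ± 0.11), and Tlr4, Cd14 and Ly96 differed by 0.00, -0.20 and 0.14 without passing the test. Among 25 feedback inhibitors 3 rose and 1 fell. Irak3, an inhibitor of Toll-like receptor signalling, read 1.80, 1.83 and 1.78 against 2.37, 2.24 and 2.26, a rise of 0.49 ± 0.04 (adjusted p = 7.11e-05). Tnip3 rose by 0.69 ± 0.09, Peli1 by 0.31 ± 0.07, and Dusp2 fell by 0.29 ± 0.06, a call lost on slide 1 alone.

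Immediate early factors leaned the other way, with 1 of 21 higher and 7 lower and a median of -0.26. Jund fell by 0.28 ± 0.04, Btg2 by 0.33 ± 0.06, Myc by 0.35 ± 0.07 and Fosl1 by 0.80 ± 0.16. Klf4 rose by 0.39. On slide 1 alone 4 of these genes were lower and 0 higher, and 13 were lower without WT PBS array 3. The AP-1 partner gene Maff also fell, by 0.35 ± 0.08.

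Genes of resident macrophage identity were mostly level or higher. Of 25 large peritoneal macrophage genes 7 rose and 0 fell. Timd4, a receptor for dead cells, read 1.37, 1.47 and 1.45 in WT and 2.03, 1.90 and 2.30 in KO cells (0.65 ± 0.08, adjusted p = 0.000542). Adgre1, which encodes F4/80, rose by 0.40 ± 0.04 and the coagulation factor gene F10 by 0.46 ± 0.06. Gata6, the transcription factor that defines these cells, differed by 0.03. Of 19 genes of small peritoneal macrophages and monocytes 3 rose and 2 fell, and Itgax, which encodes CD11c, rose by 0.74 ± 0.14.

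Surface receptors followed. Among 26 phagocytosis and scavenger genes 6 rose and 0 fell. Marco, a receptor for bacteria, read 7.86, 7.90 and 7.81 in WT and 8.63, 8.43 and 8.44 in KO cells and rose by 0.64 ± 0.08 (adjusted p = 0.000554). Cd47, the signal against being eaten, rose by 0.41 ± 0.05, and Lrp1 by 0.34 ± 0.09. C-type lectins and Siglecs were 7 higher and 3 lower of 20, and 4 and 1 on slide 1 alone. Clec12a, an inhibitory lectin, stood at 1.34, 1.12 and 1.71 in WT and at 2.47, 2.60 and 2.32 in KO cells, a rise of 1.07 ± 0.13 (adjusted p = 0.000347), and Clec4a1 rose by 0.90 ± 0.14. Siglec1, a sialic acid receptor that interferon usually raises, went down from -1.34, -1.32 and -1.24 to -2.02, -2.21 and -2.38 (-0.90 ± 0.14, adjusted p = 0.00161).

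Complement genes were 5 higher and 2 lower of 16. C2, of the classical pathway, read 0.83, 0.94 and 0.81 against -0.28, -0.20 and -0.30, a fall of 1.12 ± 0.09 (adjusted p = 2.03e-05), and the complement receptor gene Cr2 fell by 1.02 ± 0.07. Integrins and adhesion genes were 7 higher and 1 lower of 22, and 3 and 1 on slide 1 alone. The one that fell was Itgb3, the platelet and macrophage integrin beta 3, from 1.59, 1.58 and 1.64 to 0.81, 0.59 and 0.67 (-0.91 ± 0.09, adjusted p = 0.000153). Itgb1, Itgb2 and Itgam rose by 0.25 to 0.32.

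Alternative activation genes were 4 higher and 2 lower of 18. Besides Chil3, Ccl17 and Ccl22, the nuclear receptor gene Pparg rose by 0.94 ± 0.16 (adjusted p = 0.00312), whereas Mgl2 fell by 0.22 ± 0.05 and the transglutaminase gene Tgm2 by 0.75, both calls lost on slide 1 alone. With the mean of its probes in place of the brightest one, Mgl2 differed by 0.03. Arg1 read 4.96, 5.24 and 3.54 against 3.67, 3.59 and 3.62 and was not called (adjusted p = 0.0672). In the inflammasome list 3 of 18 genes rose, the inflammatory caspase genes Casp1 (0.28 ± 0.07) and Casp4 (0.27 ± 0.07) and Il18, and 1, Nlrp1a, fell, a call lost on slide 1 alone. Casp8 differed by -0.01.

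The metabolic lists stand against 8.06% called higher and 6.05% called lower over all genes tested. Scd1 and Scd2, which place the first double bond in fatty acids, read 3.18, 3.24 and 3.07 against 2.27, 2.15 and 2.27 and 0.67, 0.72 and 0.62 against -0.08, -0.02 and -0.02. They fell by 0.93 ± 0.09 and 0.71 ± 0.08 (adjusted p = 9.24e-05 and 0.000328), with no overlap between groups. In the list of cholesterol efflux and fatty acid genes 5 of 24 were higher, among them the lipase gene Lpl (0.88), and 4 lower, and 2 and 4 on slide 1 alone. Of 21 sterol synthesis genes 1 was higher, Mvk (0.32 ± 0.07), and 0 lower. Glycolysis had 2 higher and 2 lower of 19, including the lactate exporter gene Slc16a3, which fell by 0.69 ± 0.19, and the citric acid cycle 0 higher and 1 lower of 20, the pyruvate dehydrogenase subunit Pdhb (-0.55 ± 0.08).

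Lysosomal genes were 6 higher and 1 lower of 26, with Ctsa, a protective protease, at 0.34 ± 0.08 and the endopeptidase Lgmn at -0.43 ± 0.10, a call lost on slide 1 alone. Antioxidant genes were 3 higher and 1 lower of 24, and Gpx1 rose by 0.59 ± 0.12. Over all genes tested, 8.06% were called higher and 6.05% lower. Across the alternatives 0 to 13 antioxidant and 0 to 17 lysosomal genes were called higher, and 0 to 2 of each list lower. Of 27 unfolded protein and heat shock genes 0 rose and 4 fell, by 0.38 at most (Pdia4), but 0 of these were lower on slide 1 alone. In the cell cycle list 1 of 35 rose and 4 fell, with 0 and 2 on slide 1 alone, and the proliferation marker Mki67 differed by 0.38 without being called. Growth factors and matrix genes were 3 higher and 3 lower of 24, with 1 and 1 on slide 1 alone, and Fc receptors 1 higher and 1 lower of 9. Of 16 circadian clock genes 0 were called by limma and 4 had an unadjusted p under 0.05. Per1 and Rora, those with the smallest p, differed by -0.41 ± 0.13 and 0.23 ± 0.10, with adjusted p of 0.0611 and 0.144.

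Markers of other cell types were measured in these samples, and some differed. Their counts stand against 8.06% called higher and 6.05% called lower over all genes tested. All 14 macrophage markers were measured, 4 rose (2 on slide 1 alone) and 0 fell, and their summed linear level was 840 to 892 in WT and 852 to 952 in KO cells. B cell markers were lower in KO cells: of 14 listed 12 were measured, 8 fell and 0 rose, the median was -0.38, and the summed level was 148 to 185 in WT and 120 to 126 in KO cells. In bulk RNA, fewer cells of a type and less RNA per cell cannot be told apart. Ms4a1, which encodes CD20, fell by 0.28 ± 0.07. Fcer2a (CD23) fell by 0.82 ± 0.18 and Ebf1 by 0.34 ± 0.08.

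The count of lower B cell markers was 5 on slide 1 alone, 7 without WT PBS array 3, and 4 and 5 without WT PBS array 1 and KO PBS array 2. Genes named above that also belong to B cells or other lymphocytes, such as Vpreb3, Cr2, Eaf2 and Lef1, fell together with these markers, whose part in those results was not tested. T cell markers were 4 lower and 0 higher of 12, with Cd3d, a subunit of the T cell receptor complex, at -0.76 ± 0.09. Their summed level was 25.8 to 32.3 in WT and 23.2 to 25.8 in KO cells.

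Neutrophil markers differed upward in 12 of 12, but only S100a9 and Camp, a cathelicidin (0.38 ± 0.11, adjusted p = 0.0406), were called, and neither was on slide 1 alone. Their summed level overlapped, at 176 to 179 in WT and 165 to 200 in KO cells, and the probes for Ngp, Ltf and Cxcr2 were above background on 0 arrays. No probe was matched to Ly6g. Whether such cells had a part in the rise of S100a9 was not tested. Of the mast cell markers 1 of 9 fell, Mcpt4 (-0.47 ± 0.10). Of 8 platelet markers 2 were measured, Pf4 and Ppbp, and both fell. The probes for the platelet genes Itga2b, Gp9, Gp1ba, Gp5 and Treml1 were above background on 0 arrays. Hemoglobin genes were not called, but Hba-a1 read 7.90 and 8.13 on WT PBS arrays 1 and 2 and 6.31 on array 3, against 6.79, 7.13 and 6.40 in KO cells. Of 10 mesothelial markers 2 were measured, and 0 of these were above background on all 6 PBS arrays. The fitted fall of the keratin gene Krt18 was 1.14 ± 0.29 (adjusted p = 0.0251). Krt18 had entered through the WT arrays only, so the filter set its direction. Its size and p-value rest partly on background signal and are no support for a fall. Krt8 differed by -0.22. The probes for the defining mesothelial genes Msln and Upk3b were above background on 0 of the PBS arrays, as were those for the fibroblast genes Col1a1 and Pdgfra. The fibroblast genes Col1a2 and Dcn differed by 0.41 and -0.29 and were not called. Of 5 eosinophil markers measured, Alox15 rose and Siglecf, Ccr3, Il5ra and Ear6 were not called. Their summed level was 5.37 to 6.55 in WT and 8.17 to 9.43 in KO cells, the probes for the granule genes Epx and Prg2 were above background on 0 arrays, and the part of such cells in the rise of Alox15 was not tested.

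**Figure D3:**
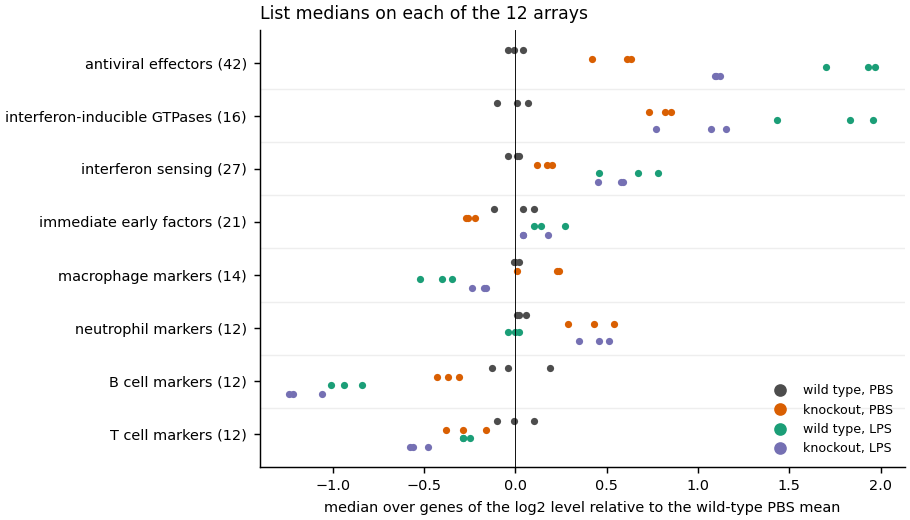
Median over the genes of a list (number in parentheses) of the log2 level relative to each gene's wild-type PBS mean (x axis), for each of the 12 arrays, 3 per group. For the antiviral effectors the knockout PBS arrays lie at 0.42 to 0.63, the knockout LPS arrays at 1.09 to 1.12 and the wild-type LPS arrays at 1.70 to 1.97.

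The same genes were then followed after LPS, where 4866 of the 12323 were called between KO and WT cells, against 39.5% of the 13283 tested, where 2653 were higher and 2589 (19.5%) lower. The LPS arrays did not enter the PBS differences, but they entered the PBS p-values, as all 12 arrays shared one estimate of the spread. KO and WT arrays after LPS lay on different slides. With slide as a term or as a random block, 737 and 1412 genes were called after LPS. Of the 1016 genes higher in PBS, 563 (55.4%) were also higher after LPS, 302 were not called and 151 (14.9%) were lower. Of the 765 lower genes, 488 (63.8%) were also lower, 269 were not called and 8 (1.0%) were higher. The interaction, which tests whether the genotype difference changed with LPS, was called for 202 of the higher and 44 of the lower genes. Over all genes tested it was called for 4.31%, 3.39% with a negative interaction. The PBS values that selected the higher and lower genes also enter their interaction. Selection alone therefore favours an interaction opposite in sign to the PBS difference, and these shares are not a like comparison.

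Of the 151 genes that turned from higher to lower, 53 (35.1%) stood in the 3 interferon lists, against 0.7% of all genes. After LPS 41 of the 42 antiviral effectors were lower in KO cells, with a median of -0.80, and 33 were called higher in PBS and lower after LPS. LPS raised the list by a median of 1.85 in WT and 0.47 in KO cells. Ifit3 differed by 1.21 in PBS and by -1.46 after LPS, an interaction of -2.67. Rsad2 went from 1.13 to -1.37, Ifi44 from 0.78 to -1.56, and Iigp1 from 1.31 to -0.94. Ifi27 was the exception, higher in KO cells by 0.28 in PBS and by 0.43 after LPS.

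Of the GTPases 14 of 16 were lower after LPS, and 4 were so with slide as a term. That term left 37 antiviral effectors lower and 41 with a negative interaction. The term is set by KO PBS array 3 against KO PBS arrays 1 and 2 alone, so slide and that array cannot be told apart. Outside the lists, Fndc7, Ifit1bl1, Batf2, a factor of inflammatory macrophages, and Phf11a, Phf11c and Phf11d followed the same course. Promoters of the 151 genes held the response element in 31.7% (39 of 123), those of genes higher in both conditions in 3.28% (15 of 457).

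Other rises were kept. Cxcl1 was higher in KO cells by 1.60 after LPS, S100a9 by 2.33, Chil3 by 1.83, Cndp2 by 1.48 and Lrmda by 5.29 on the fitted scale, all called. Irak3 (0.46), Marco (0.70) and Clec12a (0.90) also stayed higher. Siglec1 was lower by 2.00 after LPS with an interaction of -1.10, C2 by 1.55 and Eaf2 by 1.70. Cxcl3 and Cyp1b1, lower in PBS, differed by 0.05 and 0.00 after LPS, and Maff turned from -0.35 to 0.46. For Cyp1b1 the KO level in PBS is background signal, so its change between conditions is not a measured size.

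**Figure D4:**
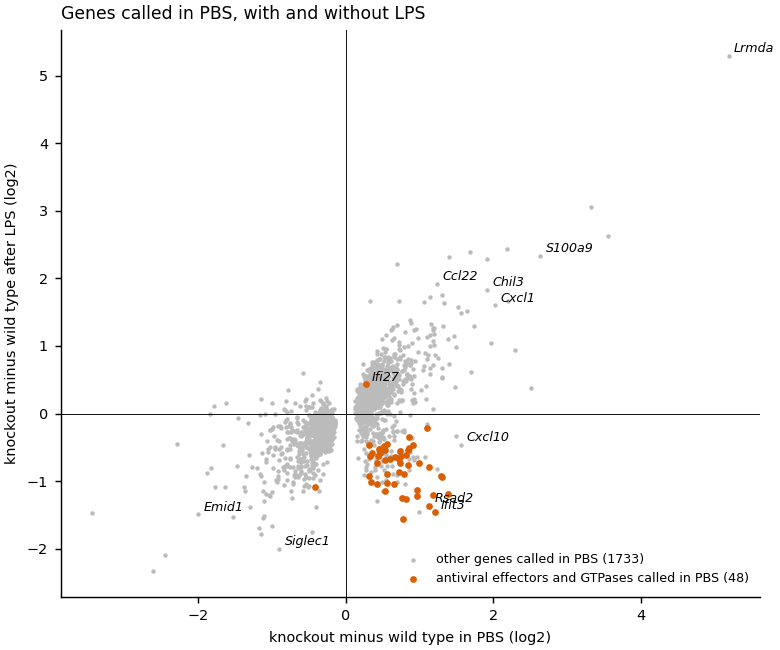
Difference between knockout and wild type after LPS (y axis, log2) against that in PBS (x axis, log2) for the 1781 genes called in PBS, with the 48 antiviral effectors and GTPases among them in orange. Nearly all orange points lie in the lower right, higher in PBS and lower after LPS, while Lrmda, S100a9, Cxcl1 and Chil3 lie in the upper right; the knockout and wild-type LPS arrays lay on different slides.

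Called genes were spread over the chromosomes, with 11.9% to 17.0% of the measured genes of each autosome. Gpr15 lies on chromosome 16, where 9 genes (2.28%) differed at least 2-fold, against 0.98% of all. They were Slc15a2, whose probes disagreed, Eva1c, Boc and the ciliary gene Ift57 (1.20 ± 0.11), which were higher, and Csta2, Cstdc5, Eaf2, Kcnj6 and the inhibitory receptor gene Btla (-1.02 ± 0.09), which were lower. The 2-fold shares were not limited to genes above background on all 6 PBS arrays. Among the 15 protein-coding genes on each side of Gpr15, 10 of 30 were measured. Tbc1d23, a trafficking protein, rose by 0.68 ± 0.05 (adjusted p = 1.03e-05), Dcbld2 by 0.74 ± 0.12 and Cmss1 by 0.35 ± 0.08. Cldnd1, the next gene measured on one side, fell by 0.63 ± 0.05 (adjusted p = 2.77e-05), and Cpox, next on the other side, differed by 0.00 ± 0.09. Their differences after LPS were 0.67, 0.81, 0.14 and -0.49 for the 4 that were called.

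Of 6 genes listed as reported to differ among C57BL/6 substrains 4 were measured. Ide, the insulin-degrading enzyme, stood at 0.07, 0.02 and 0.31 in WT and at 1.30, 1.43 and 1.26 in KO cells, and rose by 1.20 ± 0.11 (adjusted p = 6.35e-05). Entpd4, a nucleotide hydrolase of the Golgi, read 1.14, 1.06 and 1.17 against 1.83, 1.80 and 1.71 and rose by 0.66 ± 0.05 (adjusted p = 2.77e-05). Both held on every probe kept for them and after LPS, at 1.17 and 0.85. Cyfip2 fell by 0.30 ± 0.09, a call lost with slide as a term (adjusted p = 0.0559) and on slide 1 alone (0.0713), and Wdfy1 differed by -0.01. The labels give C57/BL6 for both genotypes and no substrain. Genotype, substrain, linked sequence and the sex-linked difference given above therefore cannot be told apart. Thbd, whose product thrombomodulin is a reported ligand of GPR15, fell from 2.06, 2.29 and 1.37 to 1.16, 1.07 and 1.21 (-0.76 ± 0.18, adjusted p = 0.0161, and 0.0763 on slide 1 alone), and WT PBS array 3 was again the lowest WT array.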

How the data were processed

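RNA was labelled with Cy3 and hybridised to one-colour arrays, per the labels. The deposited files hold spot intensity (processed signal, median signal, local background) and 0 or 1 flags, written by Agilent Feature Extraction 11.5.1.1 per the submitters' processing notes. The processed intensity is background-subtracted, per the file headers. From these, log2 of the processed signal minus each array's 75th percentile over non-control spots was computed, spots of a probe were averaged without outlier flags, and probes were kept if well above background on all 3 arrays of a group. Of 56605 probes, 32994 (58.3%) matched a symbol through a RefSeq table of GRCm38.p6. The files' own positions are of another build and were not used. The brightest of a gene's probes stood for it. Of 4414 genes with several, 856 had a called probe, and 1 of these had probes called in opposite directions. Probes that disagree without both being called, as in Slc15a2, are not counted there. Overlapping or near-identical genes such as the Ifit, Gbp and Hba families can share probe signal.

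One mean per group was fitted to all 12 arrays in limma 3.58.1 (R 4.3.3) with a trended variance, two-sided tests and Benjamini-Hochberg adjustment over 13283 genes at 0.05. The steps were tested on simulated data. The interaction is the KO minus WT difference after LPS less that in PBS. Where a gene was above background on no array of a group, its fold is a lower bound against the lowest signal well above background. The genes, the 33 function lists, the 13 marker lists and the rule for naming genes were chosen with earlier results of these data known. Named were the 15 largest rises and falls above background on all 6 arrays without overlap (clone names passed over), 6 lower bounds each way, up to 4 called members per list (2 if none was called) and 5 interaction genes each way. Other list members and the genes near Gpr15 were named after their values were seen. The 19 alternatives cover scaling, background, filters, probes, slide, arrays, variance and pairing. The mean signal column was not used here, so the normexp alternative starts from the median signal. Equal replicate numbers of KO PBS and WT PBS arrays had residual correlations of -0.042, -0.0685 and -0.102 and so do not pair these groups. Pairing of PBS with LPS arrays within a genotype was not tested, and the fit treats them as independent. Erythroid list medians relative to the WT PBS mean were 0.45, 0.69 and -1.14 on WT PBS arrays. On WT LPS arrays they were 0.33, 0.66 and -1.2. KO PBS arrays gave -0.64, -0.31 and -1.03, and KO LPS arrays -0.57, -0.38 and -0.97. If such arrays share a preparation, the p-values do not allow for it. A few list members are counted in their lists but not reported here by name.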

Additional observations from a re-analysis of the deposited data

Results flagged for a closer look

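The genotype difference changed with LPS for 545 of the 12323 genes by the interaction term (limma, Benjamini-Hochberg adjustment). Among the genes named, the difference after LPS was below that in PBS, on the log2 scale, for interferon-related genes: Ifit3b (-2.58), Iigp1 (-2.24), Cxcl10 (-2.02), Oas3 (-2.02), Oasl2 (-1.68), Isg20 (-1.67), Ifi47 (-1.60), Irf7 (-1.52), Xaf1 (-1.48), Irgm2 (-1.43), Gbp7 (-1.38), Bst2 (-1.35), Gbp5 (-1.31), Ddx58 (-1.23), Parp14 (-1.21), Trafd1 (-1.10), Siglec1 (-1.10) and Ifih1 (-1.03). It was also below for the antigen presentation genes H2-T24 (-1.05), Psmb10 (-0.85), Cd40 (-0.84), Tap1 (-0.73) and Nlrc5 (-0.65), and for Il15 (-1.73), Il18 (-0.98), Tnip3 (-0.95), Casp1 (-0.63), Casp4 (-0.53), Myd88 (-0.29) and Gch1 (-0.27). The others were Itpka (-1.31), Bbx (-0.78), Timd4 (-0.69), Cd47 (-0.57), Eaf2 (-0.52), Npc2 (-0.51) and Birc5 (-0.51). The interaction was positive for Cyp1b1 (1.84), Cxcl3 (0.88), Maff (0.82), Cr2 (0.79) and Fcrl1 (0.74). The value of Cyp1b1 rests on background signal on the KO PBS arrays.

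Outside the autosomal genes, 4 Y-linked genes were above background on the KO PBS arrays and on 0 of the WT PBS arrays. Eif2s3y was at least 54.5-fold higher, Ddx3y at least 10.2-fold, Kdm5d at least 9.41-fold and Uty at least 2.88-fold.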

How the results depend on the processing

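Against 1781 genes called in PBS, 766 were called from the 6 PBS arrays alone, 1029 on slide 1 alone, 5549 with array weights, and 870 to 2457 when 1 PBS array was left out. With the replicate number as a block, 205 genes and 19 of the 34 higher antiviral effectors were called. After LPS (4866) the count was 737 with slide as a term, 1412 with slide as a random block and 7392 with array weights, and the interaction (545) reached 4899 with array weights. The causes were not tested, except that fewer arrays entered the fits of the 6 PBS arrays, of slide 1 and without 1 array. Lower B cell markers (8) numbered 3 from the 6 PBS arrays alone, 5 on slide 1 alone, 2 with the block, and 4 to 7 without 1 array. Without 1 array, antiviral effectors numbered 32 to 35 and GTPases 11 to 13. Quantile normalization gave 919 higher and 1021 lower genes. Of 161 named genes that were called, 53 were called in every alternative, and the sign of 1, Mgl2, reversed (0.03 with the mean of its probes). Dim probes limit the bounds, which rest on the lowest signal well above background.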
